A study of Rattus norvegicus with 20 samples.

Results

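Lipoproteins carry triglyceride and cholesterol through the blood, and the liver makes most of the proteins that build them. The levels of 10 hepatic mRNAs of this kind were compared between rats fed tofu or casein with fish oil or soybean oil. They were Apob and Mttp, which build the particle, the apolipoproteins Apoa1, Apoa2, Apoa4, Apoa5, Apoc3 and Apoe, and the enzymes Lcat and Lipc. The rule was the name of the gene, with no measured value in it, but the list was chosen with earlier results of these data known. A gene was represented by its brightest probe set, the one with the highest mean over all arrays, and these 10 genes were among 14217 with a measured probe set. They had 12 of the 31039 probe sets tested, because Apob and Apoe had 1 further probe set each.

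The rats were male Sprague-Dawley, obtained at 4 weeks of age and fed for 21 days. The groups were tofu with fish oil (TF), tofu with soybean oil (TS), casein with fish oil (CF) and casein with soybean oil (CS), with 5 rats in each. All diets held 200 g/kg of protein and 150 g/kg of fat, of which 50 g/kg was fish oil in TF and CF, and the tofu diets also held some casein. Each liver was hybridised to 1 Affymetrix Rat Genome 230 array (version 2), and a rat is named by its group and the number in its label, as in rat CF-1. A value is a log-scale z score, in which each array is set against its own distribution of signals and 0.2 corresponds to 1.41-fold. The fold changes given here use that scale. The protein effect is the mean of TF and TS minus the mean of CF and CS, the oil effect is the mean of TF and CF minus the mean of TS and CS, and each compares 10 rats with 10. The differences come from 1 limma fit, and the threshold for a call was 0.05 for the p adjusted over the 31039 probe sets by the Benjamini-Hochberg method.

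In the liver, MTP (Mttp) loads triglyceride onto apolipoprotein B as it enters the endoplasmic reticulum, and the particle leaves the cell as VLDL. The smaller apolipoproteins move between particles: apoA-I and apoA-II form the frame of HDL, apoA-V promotes and apoC-III restrains the hydrolysis of triglyceride, and apoE binds receptors that take remnants back into the liver. ApoA-IV travels on chylomicrons, VLDL and HDL, and in rats both intestine and liver make it. In plasma, LCAT esterifies the cholesterol of HDL and hepatic lipase (Lipc) hydrolyses the lipids of remnants and HDL.

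None of the 10 genes passed the threshold in either main effect, in the interaction (the oil effect on tofu minus that on casein) or in any of 5 comparisons of single groups. Over all probe sets, 0.557% passed in the protein effect, 0.193% in the oil effect and 0% in the interaction. The lowest adjusted p among the 10 genes was 0.0597, for Apoa4 in the oil effect. Apoa4 averaged 2.33 ± 0.233 in the fish oil groups and 2.70 ± 0.106 in the soybean oil groups (SD, n = 10 each). Apoa4 also had the next lowest, 0.0664 in TF against CS, followed by Lipc with 0.0867 in the same comparison. In the protein effect the lowest adjusted p was 0.149, for Lipc, with 2.44 ± 0.0873 in the tofu groups and 2.55 ± 0.0609 in the casein groups (SD, n = 10 each). In whole liver RNA, fewer cells of a type and less RNA per cell cannot be told apart.

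At an unadjusted p under 0.05, 2 of the 10 genes were lower on tofu, Mttp and Lipc, against 3.53% of probe sets in that direction and 10.2% in either. Likewise 2 genes were lower on fish oil, Apoa4 and Lipc, against 2.58% of probe sets in that direction and 5.55% in either. No gene reached this p in the interaction, where 3.43% of probe sets did.

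**Figure D1:**
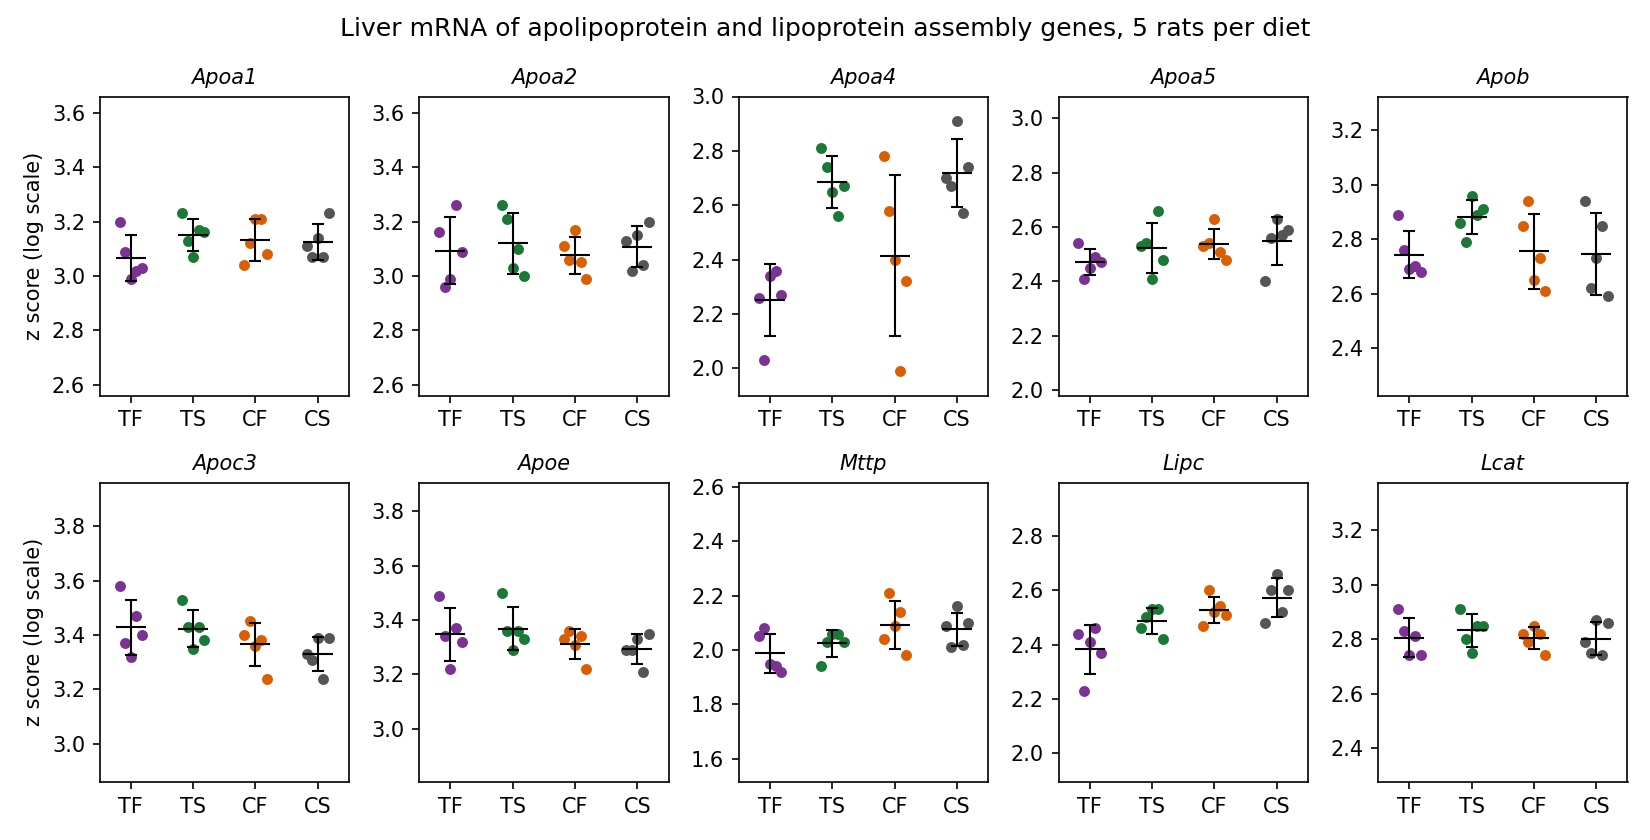
Deposited z score (vertical axis, log scale) of each of the 10 genes in the 5 rats of TF, TS, CF and CS, with 1 point per rat and the group mean ± SD; every panel spans the same height in z. Apoa4 is low in all 5 TF rats and spread from 1.99 to 2.78 in CF, and the means of most other genes lie close together.

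The reference promoters of the 2 genes with the lowest adjusted p are shown so that their start regions can be compared. They are RefSeq windows of the build GRCr8, from 250 bases before the annotated start to 50 after it. The Apoa4 window is chr8:55435529-55435828 on the plus strand, and the Lipc window is chr8:80516236-80516535 on the minus strand. Capitals mark a match to CAAAGNNCA, the core of the motif bound by the hepatocyte factor HNF4A, read on the opposite strand.
Apoa4: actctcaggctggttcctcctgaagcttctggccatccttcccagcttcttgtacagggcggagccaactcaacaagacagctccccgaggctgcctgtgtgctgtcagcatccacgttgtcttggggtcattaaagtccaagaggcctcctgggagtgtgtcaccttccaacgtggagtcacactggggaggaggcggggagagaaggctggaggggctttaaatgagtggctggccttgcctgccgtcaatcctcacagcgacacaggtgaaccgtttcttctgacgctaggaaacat
Lipc: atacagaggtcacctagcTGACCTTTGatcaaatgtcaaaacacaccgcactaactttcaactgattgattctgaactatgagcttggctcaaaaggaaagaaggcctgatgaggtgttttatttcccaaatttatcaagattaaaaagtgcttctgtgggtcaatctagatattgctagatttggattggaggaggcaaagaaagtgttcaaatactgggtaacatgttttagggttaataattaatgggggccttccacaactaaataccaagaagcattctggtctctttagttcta
The Lipc match TGACCTTTG lies 232 to 224 bases before the start, and 6.08% of 33469 promoter windows of this length hold a match on either strand. The Apoa4 window held no match to it, to the sterol regulatory element TCACNCCAC (1.12% of windows) or to the TATA box TATAAA (14.2% of windows), searched on both strands. Windows were at hand for 5 of the 10 genes, 8 windows in all. Of the others, the 3 windows of Apoe and the 1 of Lcat held none of the 3 motifs. The 2 windows of Apoa5 overlap and share a TATAAA, which lies 30 to 25 bases before the start of the first, and the second also held GTGGGGTGA, a match to TCACNCCAC on the opposite strand. In the same annotation Apoa1, Apoc3, Apoa4 and Apoa5 follow one another on chromosome 8 with no gene between them.

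Apob encodes the single large protein that stays with a VLDL particle for its lifetime. Its z scores were 2.89, 2.76, 2.69, 2.70 and 2.68 in TF, 2.86, 2.79, 2.96, 2.89 and 2.91 in TS, 2.85, 2.94, 2.65, 2.73 and 2.61 in CF, and 2.94, 2.62, 2.73, 2.85 and 2.59 in CS. The 4 groups overlapped, and the 5 TS rats lay in a narrow band at 2.79 or above. The difference of TS from CS was 0.14 (SE 0.0722, adjusted p = 0.741) and that of TF from TS was -0.14 (SE 0.0722, adjusted p = 0.899). The interaction was the largest in size of the 10 genes, at -0.15, with a 95% interval of -0.36 to 0.07 (adjusted p = 1). The further probe set of Apob was dim, with group means between -0.23 and -0.09, about the median of an array. Its oil difference of 0.09 (95% interval 0.01 to 0.17, adjusted p = 0.851) had the opposite sign to that of the bright probe set, -0.06 (95% interval -0.17 to 0.05, adjusted p = 0.986).

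Mttp had z scores of 2.05, 2.08, 1.95, 1.94 and 1.92 in TF, 1.94, 2.03, 2.06, 2.06 and 2.03 in TS, 2.04, 2.21, 2.09, 2.14 and 1.98 in CF, and 2.09, 2.01, 2.16, 2.02 and 2.10 in CS. All 10 tofu rats lay below the casein mean, and 4 of them lay below every casein rat. The protein difference was -0.08 (SE 0.0328, 95% interval -0.15 to -0.01, 1.14-fold lower, adjusted p = 0.413). The oil difference was -0.01, with an interval of -0.08 to 0.06 (adjusted p = 1). In TF against CF, Mttp differed by -0.10 (SE 0.0464, adjusted p = 0.698). Apobec1, whose product edits apoB mRNA and so sets which form of the protein is made, differed by 0.03 on tofu (95% interval -0.08 to 0.13) and by -0.03 on fish oil (95% interval -0.14 to 0.07).

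Apoa4 had z scores of 2.26, 2.03, 2.34, 2.36 and 2.27 in TF and 2.78, 2.58, 2.40, 1.99 and 2.32 in CF, against 2.81, 2.74, 2.65, 2.56 and 2.67 in TS and 2.70, 2.67, 2.91, 2.57 and 2.74 in CS. Every TF rat lay below every TS and CS rat, 3 of the 5 CF rats did so too, and rats CF-1 and CF-2 lay within the soybean oil range. In all, 8 of 10 fish oil rats lay below every soybean oil rat. The oil difference was -0.37 (SE 0.0764, 95% interval -0.53 to -0.21, 1.89-fold lower, adjusted p = 0.0597). Of 31039 probe sets, 0% had all fish oil rats below all soybean oil rats, and Apoa4 did not either.

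On tofu, the fish oil difference of Apoa4 (TF against TS) was -0.44 (SE 0.108, 95% interval -0.66 to -0.21, 2.12-fold lower, adjusted p = 0.352). On casein (CF against CS) it was -0.30 (SE 0.108, 95% interval -0.53 to -0.08, 1.68-fold lower, adjusted p = 1). The 2 differences were not shown to differ, with an interaction of -0.13 (SE 0.153, 95% interval -0.45 to 0.19, adjusted p = 1). Both changes of diet together (TF against CS) gave -0.47 (SE 0.108, 95% interval -0.69 to -0.24, 2.23-fold lower, adjusted p = 0.0664). The groups did not overlap in TF against CS, as in 0.957% of probe sets in the same direction, nor in TF against TS, as in 0.606%. The share of probe sets called at the adjusted p was 0.457% in TF against CS, 0.0677% in TF against TS and 0.0451% in CF against CS. The protein difference was -0.10 (95% interval -0.26 to 0.06, adjusted p = 0.71).

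Apoa4 also varied most among rats on the same diet. Its SD within groups was 0.18, higher than that of 84.4% of genes, where the median gene had 0.0953, and the other 9 genes lay between 0.0612 (Lcat) and 0.116 (Apob). Most of this spread came from CF, with an SD of 0.296, against 0.13 in TF, 0.0956 in TS and 0.125 in CS. In order of group means, Apoa4 ran TF, CF, TS, CS from low to high, and no neighbouring pair in that order differed by more than the larger of the 2 SDs. Whether Apoa4 was called turned on the setting. In the oil effect it was called in 1 of 20 fits without 1 rat and in 3 of 9 other settings. Without rat CF-1, the CF rat with the highest Apoa4, the oil difference was -0.42 (adjusted p = 0.00774), and it was also called with bright probe sets only (-0.37, adjusted p = 0.0186), after quantile normalization (-0.40, adjusted p = 0.0198) and with a variance trend and robust estimation (-0.37, adjusted p = 0.0349). It was not called with arrays set to 1 median and interquartile range (-0.34, adjusted p = 0.101), without the 3 least correlated arrays (-0.35, adjusted p = 0.251) or with the rat number as a block (-0.32, adjusted p = 0.329).

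Apoa4 is an intestinal transcript too, so the enterocyte markers were checked in the same livers. Of 8 such markers 6 were measured, and their mean z per rat ran from 0.241 to 0.504 in TF, 0.32 to 0.511 in TS, 0.31 to 0.479 in CF and 0.275 to 0.47 in CS. These ranges overlapped in all groups, and none of the 6 passed the threshold in the oil effect, where their median difference was 0.0128. Over the 20 rats, villin (Vil1) averaged -0.437, Cdx2 -0.0677 and intestinal alkaline phosphatase (Alpi) -0.0556, close to or below the median of an array, and Fabp2 averaged 0.126. Cdh17 averaged 0.999 and ran from 0.19 to 1.82 between rats, and Anpep, a peptidase that the liver makes as well, averaged 1.7 (1.46 to 1.93). Fabp2, the fatty acid binding protein of enterocytes, fell on tofu (-0.43, SE 0.0696, adjusted p = 0.00551), and on fish oil it differed by -0.17 (95% interval -0.31 to -0.02, adjusted p = 0.823). The part of intestinal transcripts in the difference of Apoa4 was not tested. Hepatocyte markers, 9 of 10 measured, averaged between 2.91 and 3.14 in every rat.

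The other A apolipoproteins differed less. Apoa1 had 3.20, 3.09, 2.99, 3.02 and 3.03 in TF, 3.23, 3.13, 3.07, 3.17 and 3.16 in TS, 3.04, 3.12, 3.21, 3.21 and 3.08 in CF, and 3.11, 3.07, 3.14, 3.07 and 3.23 in CS. Its groups overlapped throughout, and 4 of the 5 TF rats lay at 3.09 or below. Its oil difference was -0.04 (95% interval -0.11 to 0.03, adjusted p = 0.996) and its protein difference -0.02 (95% interval -0.09 to 0.05, adjusted p = 0.913).

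Apoa2 lay between 2.96 and 3.26 in all 20 rats and its group means ran only from 3.07 in CF to 3.12 in TS. Its differences were 0.02 on tofu (95% interval -0.08 to 0.11) and -0.03 on fish oil (95% interval -0.12 to 0.06). Apoa5, a neighbour of Apoa4 on the chromosome, lay between 2.40 and 2.66. It averaged 2.47 ± 0.0474 in TF, 2.52 ± 0.0932 in TS, 2.54 ± 0.0563 in CF and 2.55 ± 0.0891 in CS (SD, n = 5 each). Of 10 tofu rats, 9 lay below the casein mean of Apoa5, by a protein difference of -0.05 (95% interval -0.12 to 0.03, adjusted p = 0.712). The oil difference of Apoa5 was -0.03 (95% interval -0.10 to 0.04, adjusted p = 1).

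Apoc3, the inhibitor of triglyceride clearance, had z scores of 3.58, 3.37, 3.32, 3.47 and 3.40 in TF, 3.53, 3.43, 3.35, 3.43 and 3.38 in TS, 3.40, 3.45, 3.36, 3.38 and 3.24 in CF, and 3.33, 3.31, 3.39, 3.24 and 3.39 in CS. The highest rats of the tofu groups were TF-3 and TS-1, and the groups overlapped. The protein difference was 0.07 (SE 0.0368, 95% interval -0.00 to 0.15, 1.14-fold higher, adjusted p = 0.509), with 8 of 10 tofu rats above the casein mean. It was 0.01 after quantile normalization (adjusted p = 0.913) and 0.11 with arrays set to 1 median and interquartile range (adjusted p = 0.305). Apoe had 3.49, 3.34, 3.22, 3.37 and 3.32 in TF, 3.50, 3.36, 3.29, 3.36 and 3.33 in TS, 3.33, 3.36, 3.31, 3.34 and 3.22 in CF, and 3.29, 3.29, 3.33, 3.21 and 3.35 in CS. It too was highest in rats TF-3 and TS-1, and its protein difference was 0.06 (SE 0.0348, 95% interval -0.02 to 0.13, adjusted p = 0.631). After quantile normalization the difference of Apoe turned to -0.01. The further probe set of Apoe was dim, with group means between -0.63 and -0.52, and differed by 0.07 on tofu (95% interval -0.08 to 0.21, adjusted p = 0.808). The oil differences of Apoc3 and Apoe had intervals of -0.06 to 0.10 and -0.07 to 0.07.

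Hepatocyte markers moved the same way as these genes, with 8 of 9 higher on tofu, none of them past the threshold, and a median difference of 0.0591 against 0.0112 over all genes. Their mean z per rat ran from 2.97 to 3.14 in TF, 2.97 to 3.13 in TS, 2.91 to 3.06 in CF and 2.92 to 3.03 in CS. Apoc3 and Apoe also lay near the top of the scale. The highest probe set of an array reached 3.43 to 3.77, and Apoc3 lay 0.14 to 0.225 and Apoe 0.189 to 0.286 below it in every rat. The part of the hepatocyte markers and of this position in the differences was not tested. Of the markers of other cells, 6 of 9 for Kupffer cells and macrophages, 6 of 8 for endothelial cells, 8 of 8 for stellate cells, 4 of 5 for cholangiocytes, 4 of 4 for adipocytes, 5 of 5 for pancreatic acinar cells and 6 of 7 for blood cells were measured. Among these, Rgs5, a pericyte and stellate cell gene, rose on tofu (0.28, adjusted p = 0.0151) and no other passed the threshold in the protein or oil effect. On fish oil all 8 stellate cell markers (median difference -0.0791) and all 6 Kupffer cell and macrophage markers (median -0.0402) were lower, the direction of Apoa4 and Lipc, with none past the threshold. Of the hepatocyte markers, 7 were higher and 2 lower on fish oil (median difference 0.012), none past the threshold. The mean of the stellate cell markers per rat ran from 0.56 to 0.699 in TF and 0.521 to 0.641 in CF, against 0.66 to 0.756 in TS and 0.545 to 0.672 in CS. That of the Kupffer cell and macrophage markers ran from 0.942 to 1.15 in TF and 0.97 to 1.06 in CF, against 0.965 to 1.23 in TS and 0.912 to 1.15 in CS. On tofu all 6 Kupffer cell and macrophage markers were higher (median difference 0.0451), none past the threshold. The part of these cells in the differences of Apoa4 and Lipc was not tested. All 6 endothelial markers were higher on tofu too, none past the threshold, with means per rat of 1.08 to 1.19 in TF, 1.11 to 1.2 in TS, 1.03 to 1.11 in CF and 1.01 to 1.11 in CS.

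Lcat was the steadiest of the 10 genes among rats on 1 diet. It lay between 2.74 and 2.91, with means of 2.80 in TF, 2.83 in TS, 2.80 in CF and 2.80 in CS. Its protein difference was 0.02 (95% interval -0.05 to 0.08, adjusted p = 0.91) and its oil difference was -0.01 (95% interval -0.08 to 0.05, adjusted p = 1).

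Lipc had z scores of 2.44, 2.23, 2.41, 2.46 and 2.37 in TF, 2.46, 2.50, 2.53, 2.53 and 2.42 in TS, 2.47, 2.60, 2.52, 2.54 and 2.51 in CF, and 2.48, 2.60, 2.66, 2.52 and 2.60 in CS. Every TF rat lay below every casein rat, while TS overlapped with all other groups. Groups did not overlap in this direction in 0.957% of probe sets in TF against CS and 0.825% in TF against CF. At the adjusted p, 0.457% of probe sets were called in TF against CS. The protein difference was -0.11 (SE 0.0324, 95% interval -0.18 to -0.05, 1.22-fold lower, adjusted p = 0.149). All 10 tofu rats lay below the casein mean, and 7 of them lay below every casein rat. The oil difference was -0.07 (SE 0.0324, 95% interval -0.14 to -0.00, adjusted p = 0.873), with 8 of 10 fish oil rats below the soybean oil mean.

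Between single groups, Lipc was -0.19 in TF against CS (SE 0.0458, 95% interval -0.28 to -0.09, 1.38-fold lower, adjusted p = 0.0867). It was -0.15 in TF against CF (SE 0.0458, 1.29-fold lower, adjusted p = 0.453), where 0.825% of probe sets had non-overlapping groups in this direction and 0.0677% were called. TS differed from CS by -0.08 (SE 0.0458, adjusted p = 0.758), where 0.0709% were called, and CF from CS by -0.04 (SE 0.0458, adjusted p = 1). These 3 comparisons with CS share the CS rats. In order of means Lipc ran TF, TS, CF, CS from low to high, and only the step of 0.10 between TF and TS was beyond the larger SD of its pair. After quantile normalization the protein difference was -0.15 and was called (adjusted p = 0.0399). No other alternative called this protein difference. It was -0.10 with arrays set to 1 median and interquartile range (adjusted p = 0.315). Without the 3 least correlated arrays it was -0.09 (adjusted p = 0.361), and with the rat number as a block -0.11 (adjusted p = 0.305).

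**Figure D2:**
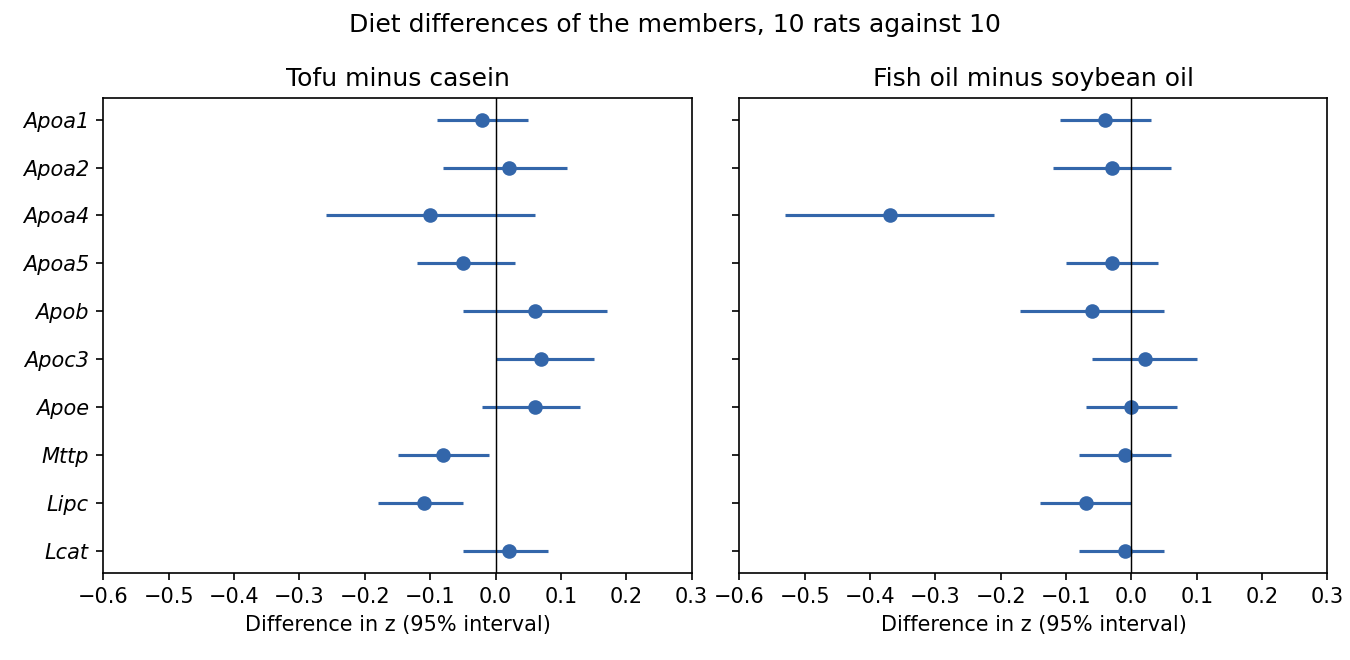
Difference in z (horizontal axis) of each of the 10 genes for tofu minus casein and for fish oil minus soybean oil, 10 rats against 10 (points: estimate of the limma fit; bars: its 95% interval). Apoa4 stands at -0.37 on fish oil, and the oil intervals of the other 9 genes lie between -0.17 and 0.10.

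The intervals bound how far the 10 genes could have moved. On fish oil the 9 genes other than Apoa4 had differences between -0.07 and 0.02, and their intervals ran from -0.17 (1.34-fold lower) to 0.10 (1.18-fold higher). On tofu the differences of all 10 genes lay between -0.11 and 0.07, and the intervals ran from -0.26 (Apoa4, 1.56-fold lower) to 0.17 (Apob, 1.34-fold higher). Some differences under the alternatives lay outside these ranges of differences. On tofu they included Lipc (-0.15) and Apoa4 (-0.14) after quantile normalization. With arrays set to 1 median and interquartile range they included Apoc3 (0.11) and Apoe (0.09) on tofu. On fish oil Apob was -0.09 after quantile normalization. The median SE of the 10 genes was 0.035, against 0.043 over all genes. Their median difference was -0.000901 on tofu, against 0.0112 over all genes, with 5 genes higher and 5 lower. On fish oil it was -0.0317, against -0.00184 over all genes, with 1 gene higher and 9 lower. These counts of small differences changed with the scaling of the arrays: after quantile normalization 2 genes were higher and 8 lower on tofu and 0 higher and 10 lower on fish oil, and with arrays set to 1 median and interquartile range 6 were higher and 4 lower on tofu and 4 higher and 6 lower on fish oil.

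Genes that work with these 10 were examined in 5 lists. Of 12 other apolipoproteins and proteins carried on lipoproteins, 10 were measured. Pon3, a paraoxonase carried on HDL, rose on tofu. It averaged 2.12 ± 0.0782 in TF and 2.08 ± 0.0435 in TS, against 1.95 ± 0.0613 in CF and 1.91 ± 0.111 in CS (SD, n = 5 each). The difference was 0.17 (SE 0.0364, 1.34-fold, adjusted p = 0.039), and all 10 tofu rats lay above the casein mean. The call held in only 5 of 20 fits without 1 rat, those without CS-1, CS-6, CF-1, TF-5 or TS-2, and in the other 15 the adjusted p reached at most 0.0805. No gene of the list passed the threshold on fish oil, where Apod, a lipocalin, had the largest difference (0.25, adjusted p = 0.547).

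Of 17 genes of particle assembly and secretion, all measured, 1 rose and 1 fell on tofu and 0 passed the threshold on fish oil. The median difference of the list was 0.00117 on tofu. Ces1d, a microsomal carboxylesterase that mobilises stored triglyceride, had 2.52, 2.71, 2.57, 2.66 and 2.61 in TF and 2.62, 2.70, 2.61, 2.38 and 2.56 in TS, against 2.39, 2.46, 2.35, 2.22 and 2.41 in CF and 2.16, 1.95, 2.25, 2.23 and 2.11 in CS. It was higher on tofu in both oils, and 9 of 10 tofu rats lay above every casein rat. The difference was 0.34 (SE 0.0458, 1.8-fold, adjusted p = 0.000887).

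Plin2, which coats lipid droplets, was 2.54, 2.57, 2.47, 2.49 and 2.52 in TF and 2.60, 2.49, 2.52, 2.42 and 2.41 in TS, against 2.68, 2.79, 2.67, 2.61 and 2.69 in CF and 2.67, 2.61, 2.69, 2.55 and 2.73 in CS. All 10 tofu rats lay below the casein mean. It fell by 0.17 on tofu (SE 0.032, 1.33-fold lower, adjusted p = 0.0183), and a dimmer probe set of the gene gave -0.17 (SE 0.0446, adjusted p = 0.109). Tm6sf2, a membrane protein needed to lipidate VLDL, had the largest oil difference of the list, -0.14 (95% interval -0.25 to -0.02, adjusted p = 0.746).

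Of 13 genes of plasma remodelling, 9 were measured, and Angptl4, a secreted inhibitor of lipoprotein lipase, fell on tofu. It had 1.70, 1.98, 1.92, 2.12 and 1.80 in TF and 1.74, 1.91, 1.65, 1.83 and 1.60 in TS, against 2.23, 2.33, 2.20, 2.14 and 2.05 in CF and 1.99, 2.24, 1.99, 1.96 and 2.06 in CS. Of the tofu rats, 8 lay below every casein rat. The difference was -0.29 (SE 0.0559, 1.66-fold lower, adjusted p = 0.0167). Its relative Angptl8 had -0.30 (SE 0.0973, adjusted p = 0.233). No gene of this list passed the threshold on fish oil.

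Of 15 receptors and lipid exporters, 12 were measured, and 2 rose on tofu. They were Abcg5 and Abcg8, whose products pair to export sterols into bile. Abcg5 averaged 0.67 ± 0.159 in TF, 0.50 ± 0.141 in TS, 0.28 ± 0.244 in CF and 0.05 ± 0.153 in CS (SD, n = 5 each). All 10 tofu rats lay above its casein mean, by a protein difference of 0.42 (SE 0.076, 2.06-fold, adjusted p = 0.0118). Abcg8 differed by 0.45 (SE 0.0844, adjusted p = 0.0147), with group means between -0.58 and 0.05, around or below the median of an array, so that only its difference in z is given. None passed the threshold on fish oil. Abca1, which exports cholesterol to apoA-I, had the largest oil difference (0.28, adjusted p = 0.319), and its 3 other probe sets gave -0.16, -0.17 and 0.23.

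Of 18 transcription factors and coregulators known to act on apolipoprotein genes, 17 were measured. Only Creb3l3 passed the threshold, and only in the oil effect. It encodes CREBH, a membrane-bound factor of the liver that in mice activates Apoa4 and other apolipoprotein genes. Creb3l3 had 2.59, 2.50, 2.39, 2.50 and 2.49 in TF and 2.38, 2.42, 2.56, 2.53 and 2.48 in CF, against 2.38, 2.35, 2.29, 2.40 and 2.29 in TS and 2.14, 2.33, 2.17, 2.21 and 2.33 in CS. Of the fish oil rats, 8 lay above every soybean oil rat and all 10 above the soybean oil mean. It rose by 0.20 (SE 0.0348, 95% interval 0.12 to 0.27, 1.4-fold, adjusted p = 0.0165). Creb3l3 was thus higher on fish oil, where the z scores of Apoa4 were lower. The call of Creb3l3 was lost after quantile normalization (0.17, adjusted p = 0.058) and without the 4 rats with low 5' beta-actin (0.19, adjusted p = 0.0628).

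**Figure D3:**
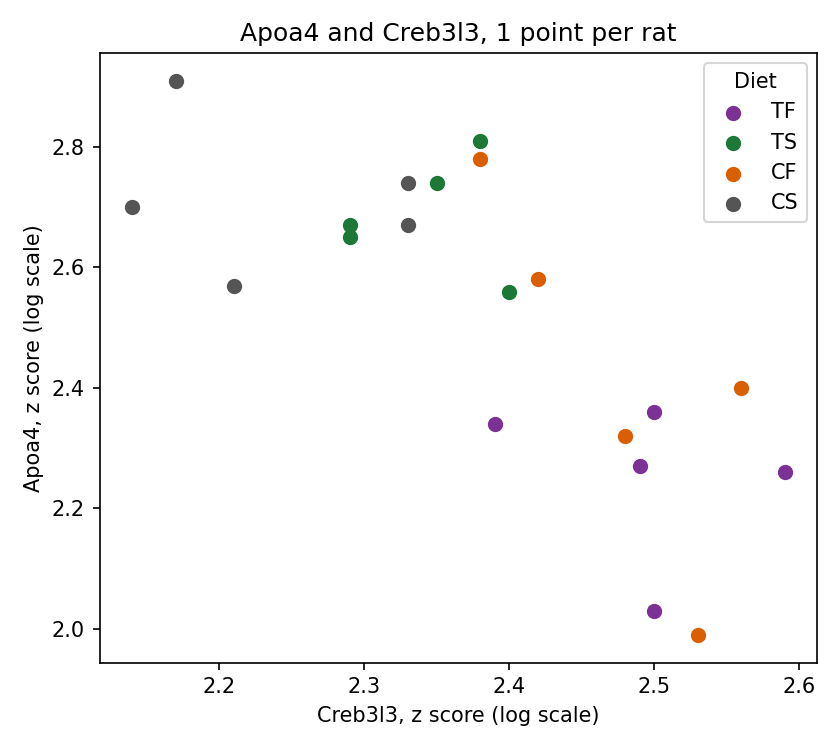
Apoa4 (vertical axis, z score) against Creb3l3 (horizontal axis, z score) in the 20 rats, 1 point per rat, coloured by diet. The 5 TF rats lie low in Apoa4 and at 2.39 or above in Creb3l3, the CF rats spread from 1.99 to 2.78 in Apoa4, and the TS and CS rats lie at 2.56 or above in Apoa4 and at 2.40 or below in Creb3l3.

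Nr1d1, the circadian repressor REV-ERB alpha, had the largest differences of this list in both effects but also a wide spread, with 0.31 on tofu (SE 0.197, adjusted p = 0.633) and 0.20 on fish oil (SE 0.197, adjusted p = 1). Srebf1, a factor of lipid synthesis chosen here after its values were seen, differed by -0.18 on tofu (adjusted p = 0.34). The median difference of the 17 regulators was -0.00618 on tofu and 0.00118 on fish oil.

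**Figure D4:**
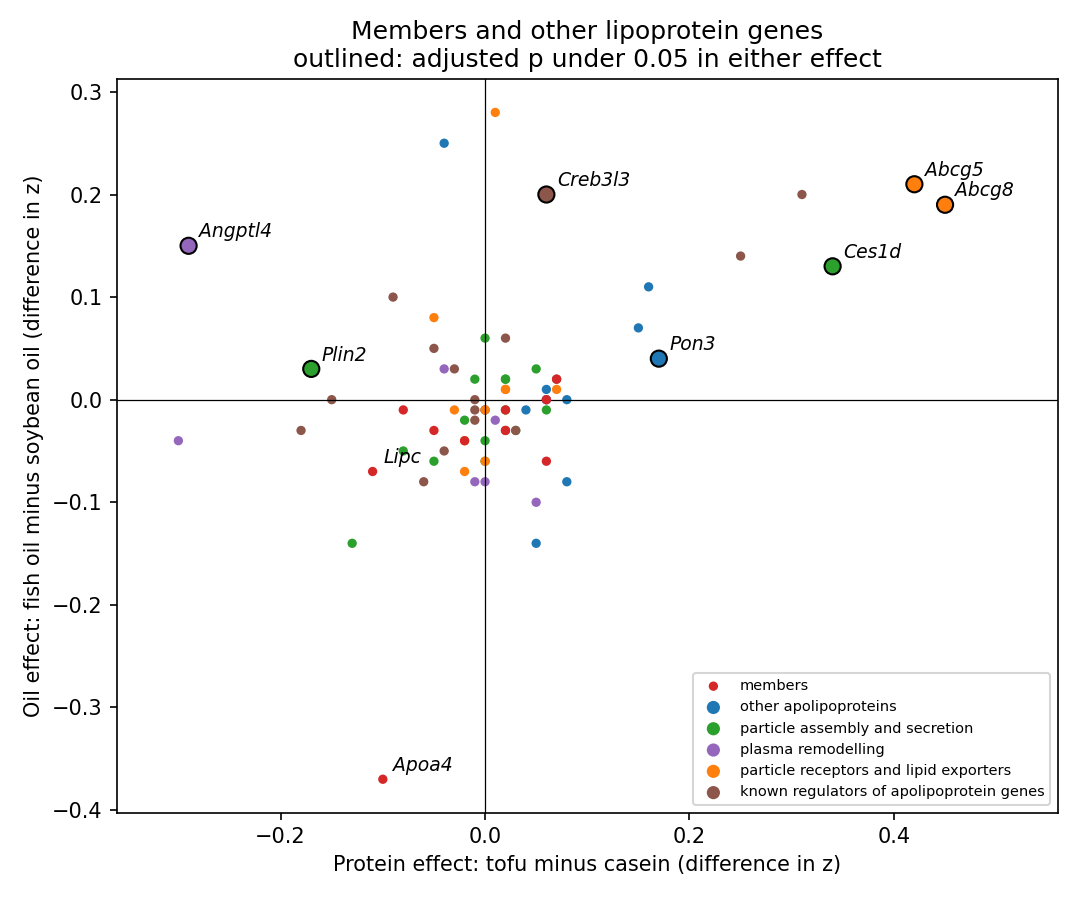
Protein effect (horizontal axis, difference in z) against oil effect (vertical axis, difference in z) of the 10 genes and of the 5 lists of related genes, 1 point per gene, with genes called in either effect outlined and larger. The called genes are Ces1d, Abcg5, Abcg8, Pon3, Plin2 and Angptl4 on tofu and Creb3l3 on fish oil, and Apoa4 lies apart at -0.37 on the vertical axis.

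The 10 genes were also compared with one another by their deviations from the group means over the 20 rats. Pearson's r was 0.953 for Apoc3 and Apoe, 0.831 for Apoe and Lcat, 0.827 for Apoa1 and Lcat, 0.778 for Apoc3 and Lcat and 0.709 for Apoa2 and Apoc3. Of 45 pairs 10 were over 0.5, the median was 0.351, and the lowest was -0.271, for Apoa1 and Apoa4. These are descriptions, since the points share arrays and their scaling. They changed with the scaling, in both directions. After quantile normalization r was 0.119 for Apoc3 and Apoe, 0.209 for Apoe and Lcat and 0.555 for Apoa1 and Lcat, 3 pairs were over 0.5 and the median was -0.0661. That scaling also left an SD of these deviations of 0.0146 for Apoc3, against 0.0723 in the deposited values. With arrays set to 1 median and interquartile range r was 0.961, 0.88 and 0.877 for the same 3 pairs, 21 pairs were over 0.5 and the median was 0.469.

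Rats TF-3 and TS-1, the highest of their groups in Apoc3 and Apoe, were 2 of 4 rats with a low value of the 5' beta-actin control, 1.30 to 1.42, against 1.86 to 2.13 in the other 16. Each diet held 1 such rat, TF-3, TS-1, CF-1 and CS-1. Without these 4 rats r was 0.927 for Apoc3 and Apoe, and 16 pairs were over 0.5. The oil difference of Apoa4 without them was -0.40 (adjusted p = 0.074).

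**Figure D5:**
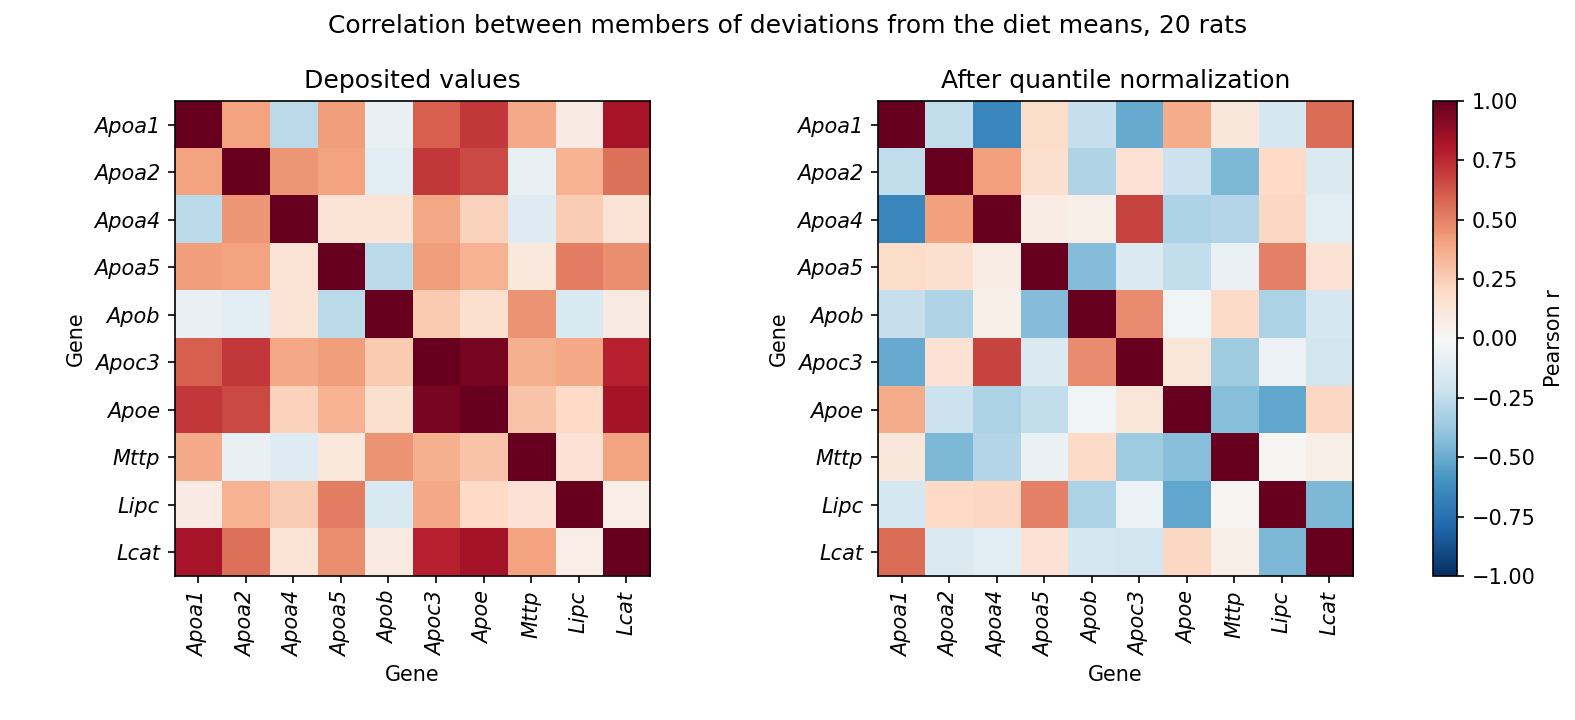
Pearson's r between the 10 genes of their deviations from the diet means over 20 rats (colour scale from -1 to 1), for the deposited values on the left and after quantile normalization on the right. The block of high r among Apoa1, Apoc3, Apoe and Lcat on the left is mostly missing on the right, where r of Apoc3 and Apoe is 0.119.

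The genes most like each of the 10 over the 20 rats were named by Pearson's r, as a description. These r are of the z scores themselves, so they include the diet differences, and they were not taken under other scalings. For Apoc3 they were Ahsg (0.979), Serpina1 (0.977) and Hp (0.972), and for Apoe they were Ahsg (0.969), Serpina1 (0.952) and Apoc3 (0.951). Ahsg, Serpina1 and Hp all encode abundant plasma proteins of the liver. For Apoa4 they were Tkfc (0.766), which encodes triokinase, Pklr (0.762), the pyruvate kinase of the liver, and Smco4 (0.761). By deviations from the group means, r with Apoa4 was 0.764 for Tkfc, 0.515 for Pklr and 0.531 for Smco4. For Lcat they were Gnas (0.867), Abcc6 (0.857) and Pebp1 (0.855), and for Lipc they were Proser1 (0.847), Irgq (0.789) and Dolpp1 (0.78). Apob was most like Skic3 (0.841), Ptprd (0.829) and C9 (0.817), and Mttp most like Ywhah (0.785), Nnt (0.767) and Hsd11b2 (0.756). For Apoa1 they were Sidt2 (0.791), Lcat (0.784) and Pcnx3 (0.756), for Apoa2 Slco2a1 (0.749), Serpinf1 (0.738) and Plg (0.733), and for Apoa5 Ap3d1 (0.788), Arrdc1 (0.777) and Aspg (0.749).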

How the data were processed

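Liver RNA of 20 rats was measured on Affymetrix Rat Genome 230 arrays (version 2), 1 rat per array, and the rats of each diet with the highest and lowest food consumption were left out by the authors. The authors normalized the arrays with the SuperNORM data service, and the deposited values are log-scale z scores, each a single score of a probe set in a rat; by their methods 0.2 corresponds to 1.41-fold. The software version, the background treatment and the summary of a probe set are not given in the sources used here. An ANOVA over Perfect Match cells, which the methods describe, needs the signals of single cells and was not run. No measure of background or depth is among the values, so the number of arrays limits the precision.

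Of 31099 probe sets with 63 missing values, 57 controls were left out, and 31039 of the other 31042 had at least 3 values in each group. Symbols came from the platform annotation, updated by gene identifier for 20757 and kept for 68 of the 20825 probe sets with 1 symbol; 436 had several and 9778 none. A model with a mean for each of the 4 groups was fitted with limma 3.58.1 in R 4.3.3 (lmFit, eBayes), with adjustment over all probe sets. The workflow was tested on simulated data.

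The 10 genes, the 5 lists of related genes and the cell type markers were chosen with earlier results of these data known. Named genes were all 10, with every probe set of their symbols, the called genes and the largest difference per effect of each list, and the 3 genes most like each member by Pearson's r. Apobec1 and Srebf1 were named outside this rule. Alternatives were quantile normalization, equal median and interquartile range of all arrays, a fit of bright probe sets alone, averaging over a gene's probe sets, robust estimation with a variance trend, weights for arrays, the rat number as a block, 16 arrays without 4 with low 5' beta-actin, 17 arrays without the 3 least correlated, fits of 2 groups only, and leaving out each rat in turn. Promoter windows came from RefSeq (GRCr8).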

Additional observations from a re-analysis of the deposited data

Results flagged for a closer look

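Of 40 groups of 5 rats (10 genes in 4 diets), 1 held a rat far from the others by Dixon's criterion, which chance gives in about 1 in 20 groups. Rat TS-1 had an Mttp z score of 1.94, the lowest of TS, against 2.03 to 2.06 in the other TS rats. No gene of the 10 passed the threshold in the interaction of protein and oil.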

How the results depend on the processing

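No gene of the 10 was called in the interaction, in TS or CF against CS, or in TF against CF or TS under any alternative. In the protein effect 1 was called after quantile normalization (Lipc, -0.15, adjusted p = 0.0399). In the oil effect 1, Apoa4, was called with bright probe sets only (-0.37, adjusted p = 0.0186), after quantile normalization (-0.40, adjusted p = 0.0198) and with a variance trend and robust estimation (-0.37, adjusted p = 0.0349). In TF against CS the same 3 settings called 2, Apoa4 and Lipc, and the fit of 2 groups only called 1, Apoa4. The fit of bright probe sets only also adjusts over fewer probe sets. Why these settings gave calls was not tested. Without 1 rat in turn, 0 to 1 were called in the oil effect and 0 to 1 in TF against CS, always Apoa4 (without CF-1 in both, without CF-6 in TF against CS). The oil difference of Apoa4 then ran from -0.42 (without CF-1, adjusted p = 0.00774) to -0.32 (adjusted p up to 0.136 among these fits), and the protein difference of Lipc from -0.13 to -0.10 (adjusted p 0.106 to 0.26).

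Small differences that were not called changed sign. On tofu these were Apoa1 with median and interquartile scaling (0.01), and after quantile normalization Apoa2 (-0.05), Apoe (-0.01) and Lcat (-0.05), and in the 16 arrays Apoa2 (-0.00) and Lcat (-0.01). On fish oil these were Apoc3 after quantile normalization (-0.00), Apob (0.01) and Apoe (0.02) with the mean of all probe sets, Apoe in the 17 arrays (0.02), and Apoe (0.03), Mttp (0.01) and Lcat (0.02) with median and interquartile scaling. Without 1 rat in turn the ranges were -0.01 to 0.03 for Apoa2 and 0.00 to 0.03 for Lcat on tofu, and -0.00 to 0.03 for Apoc3, -0.02 to 0.02 for Apoe and -0.02 to 0.00 for Mttp on fish oil.

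For rats with the same number, r of their deviations ran from -0.0975 to 0.128 over 22 pairs (median 0.037). Over 128 pairs with different numbers it ran from -0.116 to 0.22 (median -0.00804). Rats TS-1, CF-1 and CS-1, which share a number, all had low 5' beta-actin. So did TF-3, which had no rat of the same number in these pairs. Whether these 4 rats deviated together was not tested. With the replicate number as a block, 0 of the 10 genes were called in each comparison, Apoa4 had an oil difference of -0.32 (adjusted p = 0.329) and Lipc a protein difference of -0.11 (adjusted p = 0.305), and 91 probe sets were called in the protein effect and 27 in the oil effect, against 173 and 60 without it.

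Ces1d and Fabp2 stayed called under all alternatives. The calls of Creb3l3, Angptl4, Plin2 and Pon3 were lost with the block (adjusted p = 0.267, 0.0537, 0.0654 and 0.174) and in the 16 arrays (0.0628, 0.105, 0.0594 and 0.0734) and 17 arrays (0.0551, 0.075, 0.0887 and 0.0976). Abcg5 and Rgs5 were lost in the 17 arrays (0.075 and 0.113), Abcg8 in the 16 and 17 arrays (0.079 and 0.075), Creb3l3 after quantile normalization (0.058) and Plin2 with median and interquartile scaling (0.0617). Probe sets called in the protein effect numbered 114 to 164 without 1 rat and 72 to 347 under the other alternatives, and in the oil effect 46 to 60 and 27 to 77.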
